A study of Mus musculus with 6 samples.

Results

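Of 32544 genes in the deposited table, a chosen set of 9 is described here. They code for sugar and related sodium-coupled transporters of the proximal tubule: Slc5a1, Slc5a2, Slc5a8, Slc5a10, Slc5a11, Slc5a12, Slc2a1, Slc2a2 and Slc2a5. They were found by their symbols, and each had a value in all 6 libraries. The libraries measured polyadenylated RNA of hand-dissected S2 and S3 segments, the later stretches of the proximal tubule, from kidneys of C57Bl/6 mice. The 3 AA libraries came 24 h after a single 3 mg/kg injection of aristolochic acid I, a plant nephrotoxin that forms DNA adducts, and the 3 DMSO libraries came 24 h after an injection of the solvent dimethyl sulfoxide. The mice are called control mice in the series' design text, with no other allele or agent named for either group and no age given. A few tubules were pooled per kidney, and nothing in the labels ties the libraries to separate mice. P-values therefore measure the spread between these libraries, which may be technical.

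The kidney filters glucose freely and takes nearly all of it back in the proximal tubule. SGLT2, the product of Slc5a2, is a low-affinity, high-capacity sodium-glucose cotransporter of the early segments, and SGLT1, the product of Slc5a1, is a high-affinity cotransporter that recovers what is left in the later segments. Both are apical and use the inward sodium gradient, whereas the facilitative carriers GLUT2 (Slc2a2) and GLUT1 (Slc2a1) let glucose leave the cell on the blood side. The other members carry related cargo. SGLT5 (Slc5a10) carries mannose and fructose, SMIT2 (Slc5a11) carries myo-inositol, and GLUT5 (Slc2a5) carries fructose. SMCT1 (Slc5a8) and SMCT2 (Slc5a12) are sodium-coupled carriers of lactate and other monocarboxylates, so these 2 members share a family with the glucose carriers but not the cargo.

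The libraries held 13304877 to 17815915 reads in AA and 15958557 to 31136251 reads in DMSO, so that 1 read stood for 0.0561 to 0.0752 CPM in AA and 0.0321 to 0.0627 CPM in DMSO. CPM, the unit used throughout, is a read count scaled to the library total. Of the table, 14311 genes reached 1 CPM in at least 3 libraries and were tested, all 9 transporters among them. Markers of the labelled tissue were abundant: the summed level of 8 proximal tubule genes was 9081 to 11646 CPM in AA and 18170 to 23626 CPM in DMSO, with 0 of the 8 higher and 4 lower by the test used below. By that test 22.3% of all tested genes were higher and 8.66% were lower. Under the 3 other scalings described below, 2 to 5 of the 8 were lower, where 14.5% to 16.9% of all tested genes were. Slc13a3 and Slc27a2, among the 4 lower here, lost their call after quantile normalization. Cdkn1a, the p21 gene induced by DNA damage, had 192 to 279 CPM in AA and 0.867 to 3.26 CPM in DMSO. DMSO replicate 3 was the DMSO library nearest to the AA mean for 6 of the 9 transporters. Values against that library alone are therefore given beside the transporters and beside some calls in other lists that end there. Calls that also ended there without a value beside them include those of Slc27a2, Slc7a7, Slc2a9, Slc16a7 and Kcnj1.

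Sequences upstream of the transporters are shown for the 2 most abundant members, both of which fell in AA, and for 1 of the 2 that passed as higher on the deposited scale. RefSeq promoter windows (GRCm38.p6), from 250 bases before to 50 after the gene start, matched 7 of the 9 members by symbol (all but Slc5a2 and Slc5a12), with 2 windows for Slc5a10. Capitals mark a motif match, TATAAA at position 29 after the start of Slc2a1. The windows lie at chr11:61720750-61721049 on the minus strand, chr10:88885742-88886041 on the plus strand and chr4:119108495-119108794 on the plus strand.
Slc5a10: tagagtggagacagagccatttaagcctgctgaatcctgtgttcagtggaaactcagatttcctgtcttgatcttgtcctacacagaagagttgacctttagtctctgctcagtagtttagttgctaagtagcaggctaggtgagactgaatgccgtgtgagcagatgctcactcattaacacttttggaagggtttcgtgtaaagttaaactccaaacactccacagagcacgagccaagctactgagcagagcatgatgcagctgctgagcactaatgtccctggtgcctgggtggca
Slc5a8: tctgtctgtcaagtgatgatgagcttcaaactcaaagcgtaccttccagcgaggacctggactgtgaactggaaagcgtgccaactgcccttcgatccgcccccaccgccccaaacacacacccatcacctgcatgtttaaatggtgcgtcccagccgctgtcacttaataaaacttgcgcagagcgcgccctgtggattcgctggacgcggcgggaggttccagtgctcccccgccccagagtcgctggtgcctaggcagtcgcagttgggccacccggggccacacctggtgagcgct
Slc2a1: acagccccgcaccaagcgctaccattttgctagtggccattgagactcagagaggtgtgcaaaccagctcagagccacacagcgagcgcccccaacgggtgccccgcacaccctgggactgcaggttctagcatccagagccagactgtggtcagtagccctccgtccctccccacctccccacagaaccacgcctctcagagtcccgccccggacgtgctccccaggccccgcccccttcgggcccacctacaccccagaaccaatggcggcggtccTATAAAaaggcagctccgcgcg

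Matches to 3 motifs were searched on both strands of 32851 promoter windows. TATAAA was in 13.6% of all windows and in 1 of the 8 windows of the transporters. The HNF4 motif CAAAGNCCA (1.98%) and the AP-1 motif TGANTCA (7.81%) were in 0 of the 8. The windows differed in composition: Slc5a8 had 20 CpG dinucleotides and 60.7% GC, Slc2a1 had 18 and 65.3%, and the Slc5a10 window printed here had 3 and 47.7%, against medians of 7 and 52.7% over all windows. A match describes letters and does not show that a factor binds there.

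Scaled by exon length, SGLT5 and SMCT1 transcripts dominated the set in both groups. Slc5a10 stood at 122 ± 13.5 CPM per kb in AA and 228 ± 20.9 CPM per kb in DMSO (mean ± SD, n = 3 each), and Slc5a8 at 77.0 ± 14.6 and 142 ± 13.6 CPM per kb in AA and DMSO. Neither overlapped the other or the next gene, Slc2a5, in either group. Slc2a5 stood at 20.1 ± 1.10 CPM per kb in AA and 39.6 ± 9.03 CPM per kb in DMSO. Slc5a2 was the lowest of the 9 in DMSO, at 4.41 ± 0.470 CPM per kb, and ranked 8 in AA, at 7.73 ± 2.57 CPM per kb. The SGLT1 gene Slc5a1 stood at 16.1 ± 3.18 CPM per kb in AA and 24.2 ± 5.60 CPM per kb in DMSO.

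Below the top 3, neighbouring ranks in AA were not separated by their ranges, though genes further apart in the order were. From rank 3 to rank 9 (Slc2a5, Slc5a1, Slc2a2, Slc5a12, Slc2a1, Slc5a2 and Slc5a11), the ranges of every pair of neighbours overlapped in AA. Slc5a1, at 12.9 to 19.3 CPM per kb in AA, lay wholly above Slc2a1, Slc5a2 and Slc5a11. In DMSO the order was Slc2a5, Slc5a1, Slc5a11, Slc2a2, Slc5a12, Slc2a1 and Slc5a2. There the pairs Slc5a1 and Slc5a11, Slc5a11 and Slc2a2, and Slc5a12 and Slc2a1 overlapped, and the others did not. Slc5a11 was ranked 9 in AA and 5 in DMSO. As shares of the summed length-scaled level of the 9 genes, Slc5a10 made up 42.9% ± 0.446 in AA and 47.7% ± 1.95 in DMSO, and Slc5a2 made up 2.69% ± 0.812 in AA and 0.932% ± 0.164 in DMSO. With coding length in place of exon length, Slc5a8 came before Slc5a10 in both groups, with shares of 38.2% and 27.8% in AA and 43.4% and 31.7% in DMSO.

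**Figure D1:**
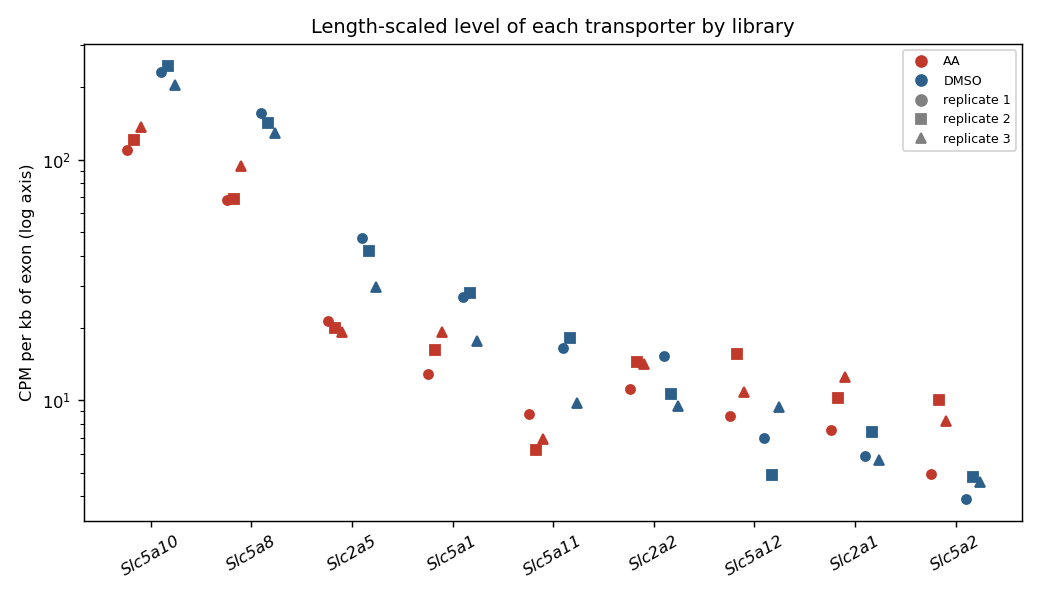
Level of each transporter in CPM per kb of exon on a log axis, 1 point per library, AA in red and DMSO in blue, ordered by the DMSO mean. Slc5a10 and Slc5a8 lie above the other 7 genes in every library, and Slc5a2 is at the low end in DMSO.

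The transporters did not move as 1 group. On the scale as deposited, Slc5a10, Slc5a8, Slc2a5 and Slc5a11 fell in AA, Slc5a2 and Slc2a1 passed as higher but not under any of 3 other scalings, and Slc5a1, Slc5a12 and Slc2a2 did not pass (limma's moderated test, adjusted p under 0.05 by the method of Benjamini and Hochberg over all tested genes). The 4 lower genes are 4 of 9, against a background of 8.66% of tested genes called lower. The 2 higher genes are 2 of 9, against 22.3% called higher, which is a share near the background. Counting both directions, 6 of 9 were called, against 30.9% of tested genes. AA and DMSO values did not overlap for 6 of 9 members, against 46.4% of all tested genes. The median log2 fold change was -0.57 over the 9 members and 0.21 over all tested genes.

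Which members passed depended on how libraries were scaled. With library medians equalised, with quantile normalization and with TMM factors alike, 0 members were higher and 5 were lower, the 4 above and Slc5a1. The background then was 11.2% higher and 16.9% lower with medians equalised, 12.7% and 14.5% by quantiles, and 12.5% and 15.7% by TMM. These scalings moved the median log2 fold change of all genes to -0.053, -0.0058 and -0.011 in that order. With voom on recovered reads 7 of 9 were called (background 30.5%), with a replicate block 6 (26.6%) and without the filter 4 (15.5%). With the term that rests the comparison on DMSO replicate 3, 0 were higher and 1 was lower, where 7.39% of genes were higher, 2.96% were lower and 10.3% were called in all. Over all genes, 3187 calls were higher and 1239 lower as deposited, and 1606 higher and 2422 lower with medians equalised. Relative to the 0.21 of all genes as deposited, the log2 fold change was 0.51 for Slc5a2, 0.43 for Slc2a1 and 0.50 for Slc5a12, and -0.026 for Slc2a2. It lay between -1.16 and -1.10 for the 4 lower genes and was -0.77 for Slc5a1. Bulk libraries cannot tell fewer cells of a type apart from less RNA per cell.

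**Figure D2:**
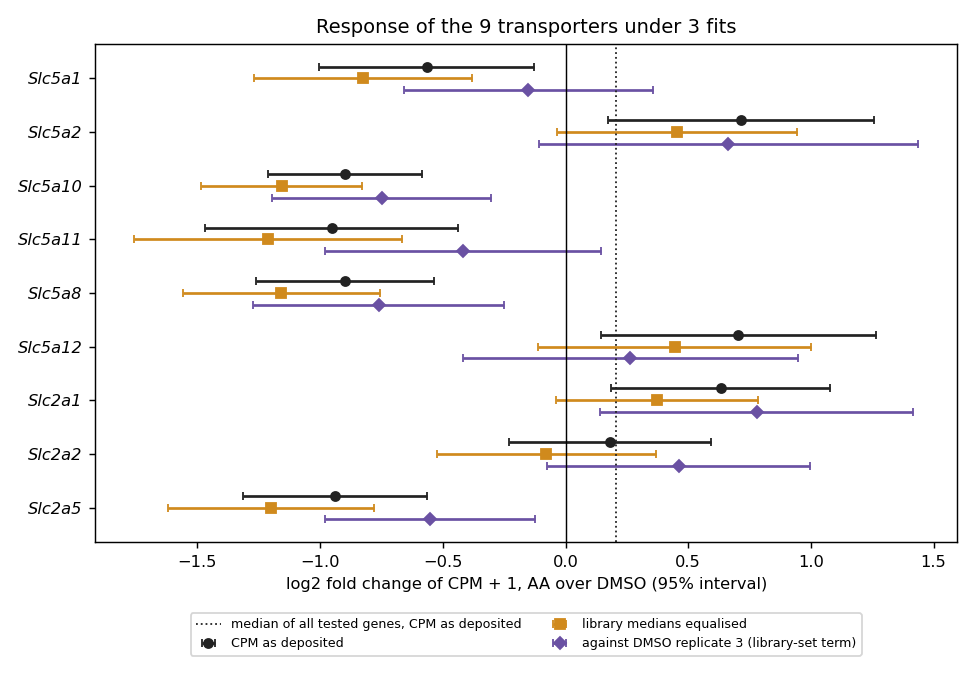
Log2 fold change of AA over DMSO for each transporter, on the log2(CPM + 1) scale with its 95% interval, in 3 fits: CPM as deposited (black), library medians equalised (orange) and a term that rests the comparison on DMSO replicate 3 (purple). Slc5a10, Slc5a8 and Slc2a5 lie below 0 with their whole intervals in each fit, and the intervals of Slc5a2 reach 0 in 2 of the 3.

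Slc5a10, the SGLT5 gene, had 260, 285 and 324 CPM in AA replicates 1 to 3, against 551, 583 and 486 CPM in DMSO replicates 1 to 3. All AA values lay below all DMSO values, and the log2 fold change was -0.90 (SE 0.14, limma adjusted p = 0.00126). It was the member called in all 17 alternative fits, with adjusted p-values of 0.000397 to 0.0378. Against DMSO replicate 3 alone the log2 fold change was -0.75. The gene maps to chr11:61672781-61720826 (minus strand, GENCODE M21 on mm10). It shares 16.6% of its exon length with Fam83g on the other strand, which had 42.4 CPM in AA and 34.1 CPM in DMSO on average.

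Slc5a8, the gene of the monocarboxylate carrier SMCT1, was the most abundant member in CPM. It had 364, 367 and 500 CPM in AA libraries, against 834, 755 and 689 CPM in DMSO libraries. The groups did not overlap, and the mean in AA was 0.540 of that in DMSO (log2 fold change -0.90, SE 0.16, limma adjusted p = 0.00267). The value against DMSO replicate 3 was -0.76 (adjusted p = 0.0578). Slc5a8 maps to chr10:88885992-88929515 (plus strand).

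Slc2a5, which codes for the fructose carrier GLUT5, had 72.5, 67.7 and 65.2 CPM in AA libraries, against 161, 142 and 101 CPM in DMSO libraries. The AA libraries were close to each other, and the DMSO libraries were all higher, with replicate 3 the nearest. The log2 fold change was -0.94 (SE 0.17, limma adjusted p = 0.00260), and -0.55 against DMSO replicate 3 (adjusted p = 0.0914). Khk, the ketohexokinase gene that starts fructose breakdown, also fell, with 301 ± 18.2 CPM in AA and 490 ± 93.6 CPM in DMSO (log2 fold change -0.68, adjusted p = 0.00807). Against DMSO replicate 3 the Khk call was lost (-0.52, adjusted p = 0.149). Slc2a5 maps to chr4:150119283-150144169 (plus strand).

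Slc5a11, the gene of the inositol carrier SMIT2, had 24.1, 17.1 and 19.0 CPM in AA libraries, against 45.5, 49.97 and 26.9 CPM in DMSO libraries. DMSO replicate 3, at 26.9 CPM, was only slightly above AA replicate 1. The log2 fold change was -0.95 (SE 0.23, limma adjusted p = 0.0115), but -0.42 against DMSO replicate 3, where the adjusted p was 0.324. Of the 4 lower members it was the one whose size rested most on DMSO replicates 1 and 2, against which it was -1.22. Slc5a11 maps to chr7:123214780-123273253 (plus strand).

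Slc5a1, the SGLT1 gene, had 53.1, 66.4 and 79.2 CPM in AA libraries, against 110, 114 and 72.8 CPM in DMSO libraries. DMSO replicate 3 lay inside the AA range, so the groups overlapped. The log2 fold change was -0.57 (95% interval -1.004 to -0.13, limma adjusted p = 0.0513), just outside the threshold. It was -0.15 against DMSO replicate 3 (adjusted p = 0.718), and without that replicate it was -0.77 (adjusted p = 0.00876). With library medians equalised it was -0.83 and passed (adjusted p = 0.0123). Slc5a1 maps to chr5:33104219-33162870 (plus strand).

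Slc5a2, the SGLT2 gene, had 14.4, 29.1 and 23.8 CPM in AA libraries, from 191 to 518 reads, against 11.3, 13.9 and 13.2 CPM in DMSO libraries, from 211 to 432 reads. AA replicate 1 was close to the DMSO range and the other AA libraries were well above it. AA over DMSO came to 0.71 in log2 (SE 0.25, limma adjusted p = 0.0475), just inside the threshold. The call was lost under each of the 3 scalings (adjusted p = 0.128 to 0.154), against DMSO replicate 3 (0.253) and without any single library other than AA replicate 1 (0.0655 to 0.192). The value itself was 0.66 against DMSO replicate 3, and 0.51 (without AA replicate 2) to 0.99 (without AA replicate 1) when 1 library was left out. The sign was positive in all 17 alternative fits. Slc5a2 maps to chr7:128265657-128272430 (plus strand), and 20.6% of its exon length is shared with BC017158 on the other strand, which had 10.4 CPM in AA and 29.1 CPM in DMSO on average. Whether the counting used the strand is not given in the sources used here, so reads of that overlap cannot be assigned with certainty.

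Slc5a12, the gene of the early-segment carrier SMCT2, had 34.8, 63.3 and 43.9 CPM in AA libraries, against 28.2, 19.9 and 38.1 CPM in DMSO libraries. The groups overlapped, since DMSO replicate 3 was above AA replicate 1. In log2, AA over DMSO was 0.70 (95% interval 0.14 to 1.26, limma adjusted p = 0.0565), and 0.26 against DMSO replicate 3. It passed without DMSO replicate 3 (0.92, adjusted p = 0.0161), without AA replicate 1 (0.90, adjusted p = 0.0347) and with voom on recovered reads (adjusted p = 0.0463). Slc5a12 maps to chr2:110597298-110647779 (plus strand).

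On the basolateral side, Slc2a1, the GLUT1 gene, had 26.5, 35.7 and 43.7 CPM in AA libraries, against 20.7, 25.9 and 19.7 CPM in DMSO libraries. AA replicate 1 and DMSO replicate 2 nearly met, and the others were apart. On the log2 scale AA exceeded DMSO by 0.63 (SE 0.20, limma adjusted p = 0.0364), and 0.78 against DMSO replicate 3 (adjusted p = 0.107). The call was lost under the 3 scalings (adjusted p = 0.130 to 0.162). Slc2a1 maps to chr4:119108711-119137983 (plus strand).

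Slc2a2, the GLUT2 gene, had 64.3, 82.7 and 81.4 CPM in AA libraries, against 88.1, 61.3 and 54.6 CPM in DMSO libraries. The groups overlapped widely, and DMSO replicate 1 was the highest of all 6. Its log2 fold change was 0.18 with a 95% interval of -0.23 to 0.59 (limma adjusted p = 0.488), and its sign turned to -0.079 with library medians equalised. It was also negative with TMM factors (-0.058), and was 0.46 against DMSO replicate 3 (adjusted p = 0.250). Slc2a2 maps to chr3:28697903-28731359 (plus strand).

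**Figure D3:**
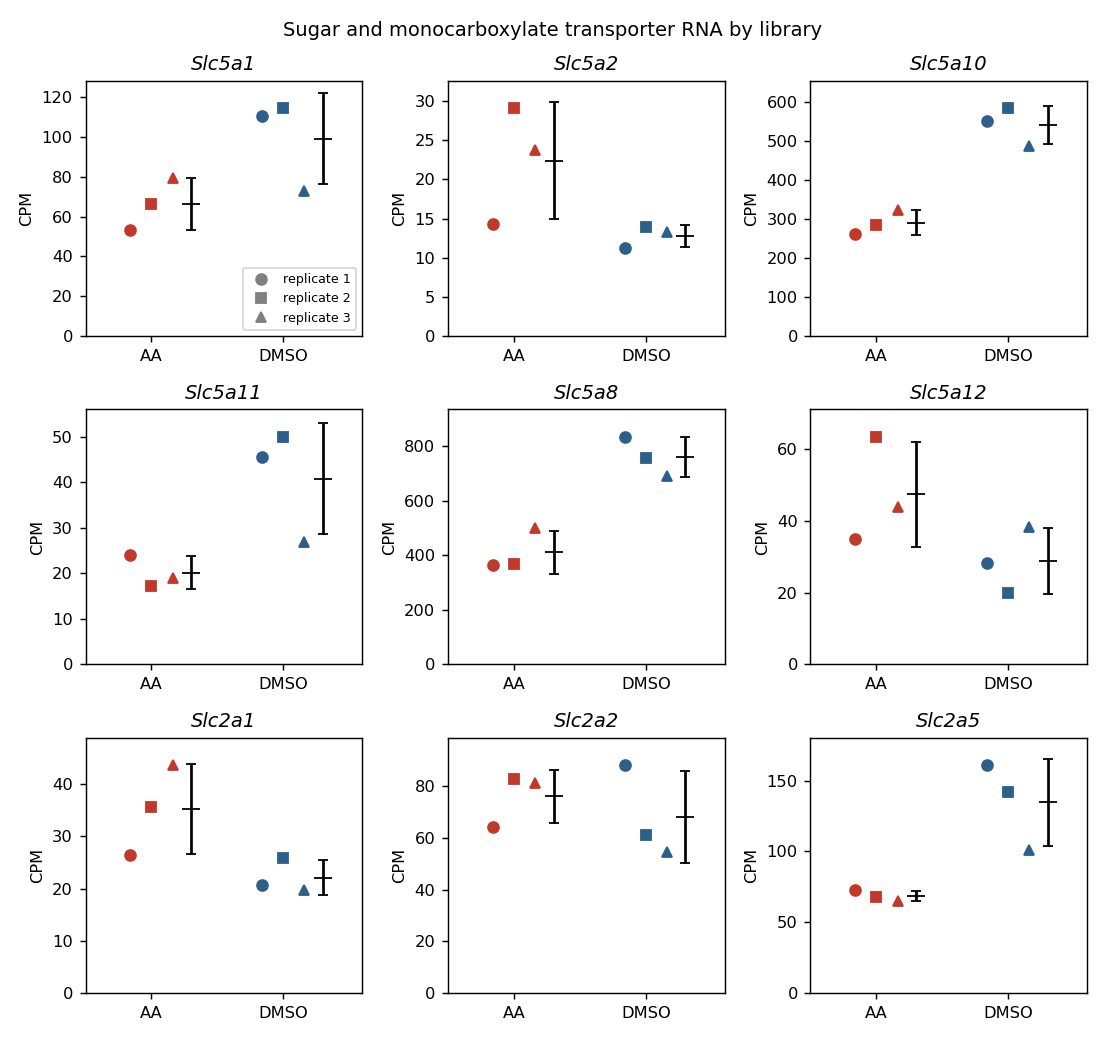
CPM of each transporter in every library, AA left and DMSO right, with the 3 replicates as circle, square and triangle and the mean ± SD as a bar. AA and DMSO points are apart for Slc5a2, Slc5a10, Slc5a11, Slc5a8, Slc2a1 and Slc2a5, and they overlap for Slc5a1, Slc5a12 and Slc2a2.

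A factor common to all genes of a library cancels in the ratio of a pair of transporters, apart from the pseudocount of 1 CPM. The log2 ratio of Slc5a2 to Slc5a1 was -1.82, -1.16 and -1.70 in AA libraries, against -3.18, -2.96 and -2.37 in DMSO libraries. SGLT2 RNA thus stood closer to SGLT1 RNA in every AA library, with a mean difference of 1.28 on the log2 scale. The log2 ratio of Slc5a12 to Slc5a8 was -3.35, -2.52 and -3.48 in AA libraries, against -4.84, -5.17 and -4.14 in DMSO libraries, a difference of 1.602. Both pairs set a carrier known from earlier segments against one known from later segments.

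The log2 ratio of Slc5a10 to Slc5a2 was 3.68 ± 0.420 in AA and 5.29 ± 0.198 in DMSO (SD, n = 3 each), a difference of -1.61. Those 3 ratios did not overlap between groups. An exact two-sided permutation test over the 6 libraries gave p = 0.1 for each, the smallest p that 3 against 3 libraries allow, or 0.133 adjusted over the 4 pairs compared. For Slc5a10 over Slc5a2 this outcome was fixed beforehand, since each AA value was lower for Slc5a10 and higher for Slc5a2 than every DMSO value. The p-value of that pair adds nothing to the results of the single genes. The log2 ratio of Slc2a2 to Slc2a1 was 1.11 ± 0.197 in AA and 1.56 ± 0.430 in DMSO, and the groups overlapped (exact permutation p = 0.2, 0.2 adjusted).

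**Figure D4:**
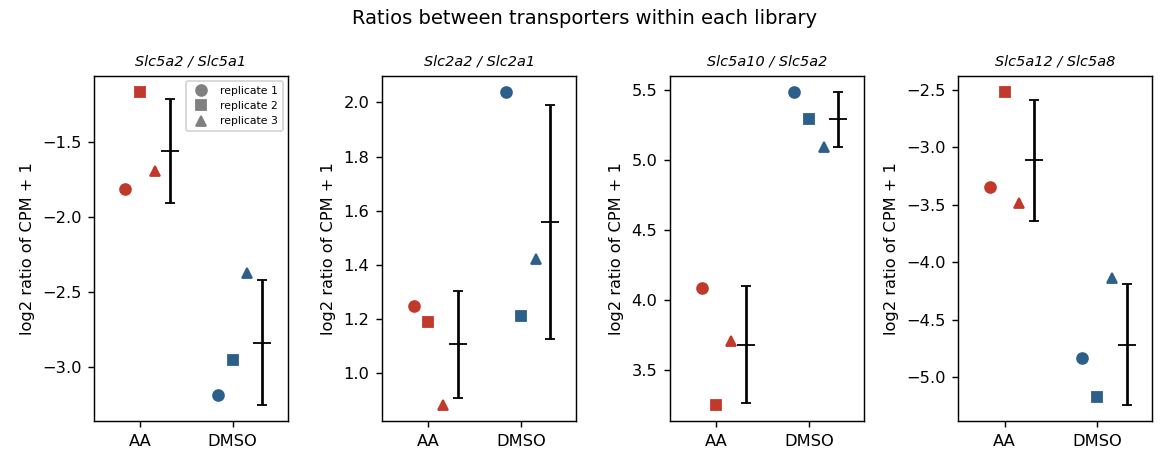
Log2 ratio of CPM + 1 between 2 transporters within each library, AA left and DMSO right, with mean ± SD as a bar, and a separate vertical scale in each panel that does not start at 0. The 3 AA libraries lie above all DMSO libraries for Slc5a2 over Slc5a1 and Slc5a12 over Slc5a8, and below them for Slc5a10 over Slc5a2.

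Markers of segments and of other nephron cells moved beside these results. As deposited, 22.3% of all tested genes were called higher and 8.66% lower. Of 8 S3 markers 1 was higher (Slc7a12) and 4 were lower (Acy3, Slc22a30, Atp11a and Aadat) in AA, and their summed level was 5100 to 6614 CPM in AA and 10535 to 13780 CPM in DMSO. The Aadat call was held in 7 of 17 alternative fits, with a log2 fold change of -0.084 against DMSO replicate 3, and the other 4 calls were held in all 17. Of 4 S2 markers 0 were higher and 2 were lower (Slc13a3 and Slc22a12), with sums of 1813 to 2401 CPM in AA and 2663 to 4002 CPM in DMSO. Neither of these calls was held after quantile normalization, without the filter, with the replicate block or against DMSO replicate 3. Of 5 S1 markers other than the transporters 0 were higher and 2 were lower (Slc4a4 and Slc7a7), with sums of 562 to 793 CPM in AA and 852 to 1147 CPM in DMSO. Most of that sum was Slc4a4, a bicarbonate transporter gene, at 428 to 460 CPM in AA and 646 to 971 CPM in DMSO (log2 fold change -0.81, limma adjusted p = 0.00473, but -0.53 and 0.135 against DMSO replicate 3). The median log2 fold change of the 5 S1 genes was 0.24, and Slc6a19, Slc7a8 and Gatm, at 0.24, 0.70 and 0.60, did not pass. No listed segment marker was at 0.

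AA replicate 2 had the most Slc5a2, Slc5a12 and Slc2a2 of the AA libraries, and also the most thick ascending limb RNA. The summed level of 4 markers of that segment was 298, 1259 and 665 CPM in AA replicates 1 to 3, against 410, 465 and 164 CPM in DMSO replicates 1 to 3, with 1 of 4 higher (Kcnj1). Of 6 principal cell markers of the collecting duct 2 were higher, with sums of 40.7 to 86.5 CPM in AA and 14.4 to 31.4 CPM in DMSO. Of 4 distal convoluted tubule markers, 3 were tested and 0 were called, with sums of 39.5 to 103 CPM in AA and 54.7 to 71.6 CPM in DMSO. GLUT1 is also made outside the proximal tubule: 2 of 6 endothelial markers were higher (271 to 315 CPM in AA, 175 to 281 CPM in DMSO), as was 1 of 4 intercalated cell markers (8.72 to 23.7 CPM in AA, 6.17 to 8.21 CPM in DMSO). Of 5 fibroblast and smooth muscle markers 2 were higher (117 to 136 CPM in AA, 59.3 to 93.6 CPM in DMSO), as were 3 of 6 leukocyte markers (197 to 282 CPM in AA, 211 to 318 CPM in DMSO). Most of the leukocyte sum was Csf1r, which went the other way and did not pass (144 ± 30.8 CPM in AA, 205 ± 47.0 CPM in DMSO, log2 fold change -0.50). The share called higher over all tested genes was 22.3%, and the counts of 1 of 4 are near it. Erythroid genes summed to 2.33 to 30.1 CPM in AA and 1.61 to 8.46 CPM in DMSO, and podocyte genes to 5.82 to 11.1 CPM in AA and 5.70 to 9.50 CPM in DMSO, with 0 of 3 tested genes called in each list. No gene of these lists was at 0 in every library. Of the genes called higher in lists other than the proximal ones, Aqp2, Cdh5 and Pdgfrb passed under all 3 scalings. The calls of Aqp2 and Cdh5 were held in all 17 alternative fits. That of Pdgfrb was lost against DMSO replicate 3, where its log2 fold change was 0.85. The part of other cells in the transporter values was not tested.

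Of 7 other SLC5 genes, 5 were tested. Their median log2 fold change was -0.55, with 1 gene called higher, 1 called lower and 3 short of the threshold (Slc5a4b, Slc5a6 and Slc5a9). Of all tested genes 22.3% were called higher and 8.66% lower. Slc5a3, the gene of the inositol carrier SMIT1, rose to 146, 288 and 208 CPM in AA libraries, against 113, 101 and 74.4 CPM in DMSO libraries. Its log2 fold change was 1.11 (SE 0.23, limma adjusted p = 0.00505). It thus went up while Slc5a11, another inositol carrier gene, went down, and both calls held under the 3 scalings. Against DMSO replicate 3 the log2 fold change was 1.46 for Slc5a3 and -0.42 for Slc5a11.

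Slc5a4a fell to 0.977, 1.52 and 1.29 CPM in AA libraries, against 11.2, 14.7 and 9.84 CPM in DMSO libraries. Its change of -2.50 in log2 (SE 0.25, limma adjusted p = 7.79e-05) exceeded in size that of every one of the 9 transporters and was called in all 17 alternative fits. The values are uncertain in so far as reads can be shared with the similar gene Slc5a4b, which had 1.31 ± 0.362 CPM in AA and 3.04 ± 1.33 CPM in DMSO and did not pass. Slc5a5 was below the filter, and Slc5a7 had 0 reads in all 6 libraries, which allows up to 0.225 CPM in the AA and 0.188 CPM in the DMSO library of lowest depth. With medians equalised or after quantile normalization 4 of the 5 tested genes were lower, and 3 with TMM factors. Lower calls made up 16.9%, 14.5% and 15.7% of all tested genes in that order.

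Of 9 other SLC2 genes, 6 were tested, 1 was higher and 0 were lower, with a median log2 fold change of 0.28. The share called higher was near the 22.3% of all tested genes, whose median was 0.21. The higher one was Slc2a9, which codes for a urate carrier of the GLUT family, with 17.1 ± 3.48 CPM in AA and 10.4 ± 0.615 CPM in DMSO (log2 fold change 0.64, limma adjusted p = 0.0364). It was not called under any of the 3 scalings (adjusted p = 0.116 to 0.154). Slc2a3, the GLUT3 gene, had 2.92 ± 0.732 CPM in AA and 2.65 ± 1.32 CPM in DMSO, and Slc2a4, the insulin-responsive GLUT4 gene, had 3.44 ± 1.64 CPM in AA and 2.31 ± 1.06 CPM in DMSO. Neither passed.

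Some partners and regulators of the renal glucose transporters moved as well. Pdzk1, a scaffold gene of the brush border, fell to 629 ± 32.1 CPM in AA, against 1335 ± 274 CPM in DMSO (log2 fold change -1.07, SE 0.17, limma adjusted p = 0.00141).

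Txnip, a glucose-responsive gene whose product promotes the removal of GLUT1 from the cell surface, rose to 151 ± 11.4 CPM in AA, against 81.1 ± 29.8 CPM in DMSO (log2 fold change 0.95, limma adjusted p = 0.00813). It was called in all 17 alternative fits, and Slc2a1 in 7 of them. Pdzk1ip1, which codes for MAP17, a partner that SGLT2 needs for activity, had 142 ± 4.52 CPM in AA and 132 ± 12.0 CPM in DMSO and did not pass (log2 fold change 0.12, adjusted p = 0.512). On the other strand, Gpr89 shares 37.5% of the exon length of Pdzk1. The exons of Rsc1a1 lie wholly within Ddi2, so its values carry no weight here.

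Of 13 tested genes of glucose and fructose metabolism 3 passed as higher and 4 as lower, around a median log2 fold change of -0.24 over all of them. Over all tested genes 22.3% were called higher and 8.66% lower, so the share called higher in this list is near the background. Pklr and Pkm, the pyruvate kinase genes, had log2 fold changes of 1.16 and 1.16 (limma adjusted p = 0.000903 and 0.00278), and 21.97% of the exon length of Pklr is shared with Hcn3 on the other strand. Hk1, a hexokinase gene, stood at 1.22 by the same measure (adjusted p = 0.0119). The gluconeogenic genes Pck1 and G6pc fell, with log2 fold changes of -1.49 and -1.43 (adjusted p = 0.00340 and 0.00921). Their DMSO values were wide, at 2357 to 5508 CPM for Pck1 and 74.4 to 253 CPM for G6pc, and against DMSO replicate 3 neither passed (-0.98 and adjusted p = 0.0846 for Pck1, -0.42 and adjusted p = 0.238 for G6pc). Pfkp was the other lower gene beside Khk (-0.64, adjusted p = 0.0113). With medians equalised or TMM factors the list held 3 higher and 6 lower genes, and after quantile normalization 3 and 4. Lower calls made up 16.9%, 15.7% and 14.5% of all tested genes in that order.

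Of 8 genes of monocarboxylate handling 2 were higher and 0 were lower, with a share called higher near the 22.3% of all tested genes. Under each of the 3 scalings 1 was higher. Slc16a1, the gene of the proton-coupled lactate carrier MCT1, rose to 14.8 ± 2.67 CPM in AA, against 3.99 ± 2.03 CPM in DMSO (log2 fold change 1.73, limma adjusted p = 0.00188) and was called in all 17 alternative fits. Slc16a7, the MCT2 gene, passed on the deposited scale (0.74, adjusted p = 0.0459) and under none of the 3 scalings. MCT1 RNA was thus higher and SMCT1 RNA lower in AA, in all 3 libraries of the group.

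Of 5 tested genes of myo-inositol and polyol handling 2 were higher and 1 was lower, against 22.3% and 8.66% of all tested genes. Isyna1, which codes for inositol synthase, had 46.8 ± 10.5 CPM in AA and 17.4 ± 3.31 CPM in DMSO (log2 fold change 1.37, limma adjusted p = 0.000781). Akr1b3, the aldose reductase gene, had 86.4, 313 and 107 CPM in AA libraries, against 57.0, 49.7 and 47.2 CPM in DMSO libraries (1.46, adjusted p = 0.0124), so that AA replicate 2 carried much of the mean. It did not pass against DMSO replicate 3 (1.57, adjusted p = 0.0626). Miox, whose product breaks inositol down in the proximal tubule, fell to 262 ± 50.1 CPM in AA, against 491 ± 149 CPM in DMSO (-0.88, adjusted p = 0.0111). Against DMSO replicate 3 the Miox call was lost (-0.53, adjusted p = 0.224). With medians equalised or TMM factors 2 genes were higher and 2 lower, and after quantile normalization 2 and 1. Lower calls made up 16.9%, 15.7% and 14.5% of all tested genes in that order.

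**Figure D5:**
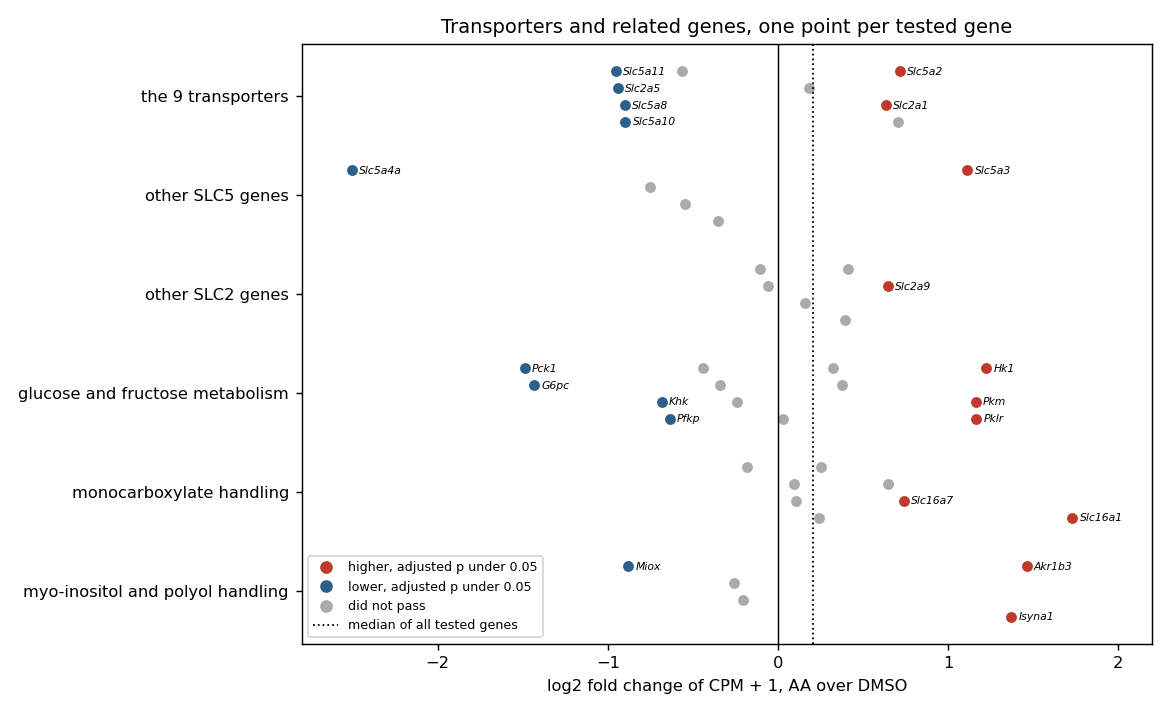
Log2 fold change of AA over DMSO on the log2(CPM + 1) scale for the 9 transporters and 5 lists of related genes, 1 point per tested gene, red for higher, blue for lower and grey for genes that did not pass, with the median of all tested genes dotted. Slc5a4a at -2.50 and Slc16a1 at 1.73 are the extremes.

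The genes whose values ran most like those of Slc5a10 over the 6 libraries were Park2, Fbxo40, Pdss2, Ndel1 and Nsdhl, with Pearson r of 0.994 to 0.997 among 9086 genes with a mean of at least 10 CPM. Those most like Slc5a2 were Wipf2, Polr2g, Mrpl19, Eif3k and Ppp1r3e, with r of 0.983 to 0.989. The 6 points share the difference between treatment groups, so such r values describe the pattern only.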

How the data were processed

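Per the labels' protocols, tubules of S2 and S3 were hand-dissected. PicoPure columns gave the RNA, and the TruSeq Stranded mRNA chemistry gave the cDNA. Per the submitters' processing notes, bcl2fastq 2.19 and kallisto were used and the build was mm10. For the joining of transcripts to genes and the strand setting, nothing is given in the sources used. The table that the authors deposited holds log10 values, on the scale log10(CPM + 1) by their totals. They were turned back to CPM and logged as log2(CPM + 1). Whole reads were recovered for 100% of values within 0.1 read.

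The 14311 genes that reached 1 CPM in 3 or more libraries were tested with limma 3.58.1 in R 4.3.3 with a variance trend, two-sided, adjusted by Benjamini and Hochberg over all of them. SE is the moderated standard error. The value against DMSO replicate 3 comes from a fit with a term that sets DMSO replicates 1 and 2 apart, and rests on 1 control library. The 17 alternatives were 3 scalings, 2 filters, 2 pseudocounts, no variance trend, voom, a replicate block, that term and leaving out each library. On simulated data with 13943 tested genes, 85.3% of 2-fold and 100% of 4-fold changes were recovered. Fewer genes changed there than in the data. The spread between simulated libraries was assumed and not estimated from these libraries. Only genes above a set level were changed, up or down at random. The shares recovered are thus not the power of the test in these data.

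Coordinates and lengths came from GENCODE M21 (9 of 9 members matched by symbol). The transporters, lists, motifs and alternatives were chosen with earlier results of these data known. Named genes were all members and the 5 genes most like Slc5a2 and Slc5a10. Lists of related genes had up to 4 called genes named, by smallest adjusted p, or the 2 most expressed where none was called. Hk1, G6pc, Pfkp, Slc5a5, Slc5a7, Slc2a3, Slc2a4, Pdzk1ip1, Rsc1a1 and the overlapping genes were named beyond that rule. In the lists of segment and cell type markers only some of the called genes were named. Slc6a19, Slc7a8, Gatm and Csf1r were named there though not called. Some genes and motifs of the lists, and the counts of the lists that held them, are not reported here.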

Additional observations from a re-analysis of the deposited data

How the results depend on the processing

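The number of genes called was 4426 as deposited, 1481 with the term for the library sets and 2484 to 3969 when 1 library was left out, with 2484 without AA replicate 2 and 2880 without AA replicate 3. Of the 9 transporters 6 were called as deposited, 1 with the library-set term (Slc5a10) and 4 to 7 when 1 library was left out. Slc5a8, Slc2a5 and Slc5a11 lost their call in that term alone, and Slc5a2 and Slc2a1 in 11 and 10 of 17 alternatives. The sign of Slc2a2 turned with medians equalised (-0.079) and with TMM factors (-0.058), where it was not called either. Of 153 member values under alternatives, 119 stayed on their side of the threshold with the same sign, 24 no longer passed and 8 newly passed. The 4 ratios kept their sign in all 32 alternatives. With a replicate block 3813 genes and 6 transporters were called. Same-numbered libraries did not deviate together (r = -0.11, -0.16 and -0.02), which gives no sign of a pairing by number. Such r values cannot show whether same-numbered libraries were collected or processed together, and the labels do not say. In the fits without 1 library, the group left with 2 libraries shares its spread with the other. The cause of the differences was not tested. Counting error is small for members with at least 191 reads, and 3 libraries per group limit the precision.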
